A study of Mus musculus with 48 samples.

Results

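Chemokines are small secreted proteins that direct the movement of leukocytes. A cell that carries the matching receptor moves toward the source of the ligand, and the family is divided by the spacing of conserved cysteines into CC, CXC, XC and CX3C ligands. In mammary tumors the ligands come from carcinoma cells, fibroblasts, endothelium and infiltrating leukocytes, and are known for drawing in monocytes, neutrophils and lymphocytes. Transcripts of 34 chemokine ligands were measured here, all genes among 19938 with a symbol made of Ccl, Cxcl, Xcl or Cx3cl, a number and at most 1 letter. Each gene was read from the transcript cluster with the highest mean over all arrays. Of 40 such genes in RefSeq, the other 6 (Ccl21a to Ccl21d, Ccl27a and Ccl27b) were named only by 7 clusters that also named a second gene and were not assigned. The mean of Ccl26 and of Cxcl15 lay among the dimmest 30% of clusters, and the remaining 32 lay above.

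RNA of 48 primary mammary tumors was hybridized to 48 Affymetrix Mouse Gene 1.0 ST arrays, with 4 tumors in each of 12 models. A model is 1 mammary tumor cell line, implanted into female mice of its own strain, aged 6 to 8 weeks, at the #4 fat pad. Tumors were harvested at a diameter of 0.5 to 1.0 cm. The paper's methods give harvest after 14 days for 4T1, 11 for F311 and 28 for MVT-1, and no day for the others. Time since implantation and model therefore cannot be told apart. The Balb/c lines were EMT-6, TS/A-E1, 4T1, F311 and D2A1, labelled spontaneous, and the FVB/N lines were Met-1, MVT-1, M6, HRM-1 and 6DT1, labelled engineered. E0771 (C57Bl/6) was labelled spontaneous and R3T (129Sv) engineered, so between Balb/c and FVB/N the strain and the origin cannot be told apart. All tumors contain host cells besides the line, and in bulk tissue fewer cells of a type and less RNA per cell cannot be told apart. Labels gave no batch or date. The values are log2 signals, so a difference of 1 is a doubling, and medians of the arrays ran from 6.76 to 6.99. The luminal keratin Krt8 lay between 10.63 and 13.40 in all 48 tumors, while the epithelial adhesion gene Epcam ran from 5.73 to 11.90.

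Some tumors are set apart in what follows by genes of fat or of B cells. In 9 tumors a score, the mean over 7 adipocyte or 7 B cell genes relative to each gene's median, lay above 2.5, and these were 4T1 replicate 3, EMT-6 replicate 3, F311 replicates 1 and 2, 6DT1 replicates 2 and 3, Met-1 replicate 2, E0771 replicate 1 and R3T replicate 2. The B cell score ran from 3.21 to 4.92 in the 5 tumors above that value and from -0.28 to 1.63 in the other 43. The adipocyte score ran from 2.52 to 4.36 in 7 tumors and from -1.24 to 2.23 in the other 41. Values without these 9 tumors are given beside several results that moved, and counts by model that moved by over 1.5 times follow those with all tumors.

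Most ligands differed among the 12 models. In a moderated F-test (limma), 29 of 34 had an adjusted p under 0.05, where 70.4% of all genes did. The median ligand spanned 2.29 log2 units between its highest and its lowest model, against 0.68 for all genes. Tumors of 1 model also varied more, with a median pooled SD of 0.47 against 0.15, so that models accounted for a median of 65.2% of the variance of a ligand and 62.4% of that of all genes. Within the Balb/c models alone 16 ligands passed (46.7% of all genes), and within the FVB/N models 25 (62.4% of all genes). The 5 ligands that did not pass over the 12 models were the eosinophil attractant Ccl11 (adjusted p = 0.059 by limma), the lymph node ligand Ccl19 (0.162), the CCR6 ligand Ccl20 (0.276), the CCR3 ligand Ccl26 (0.195) and the CXC ligand Cxcl15 (0.348). Without the 9 tumors Ccl20 passed (0.0368) and the myeloid ligand Ccl6 did not (0.136, from 0.0382). When all tumors that share a replicate number were left out, Ccl6, Ccl9, Ccl22, Cxcl2, Cxcl3 and Cxcl13 each failed at least once, at a highest adjusted p of 0.264, 0.0731, 0.136, 0.174, 0.0835 and 0.144, while Ccl11 (0.0144) and Ccl19 (0.0348) each passed once.

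**Figure D1:**
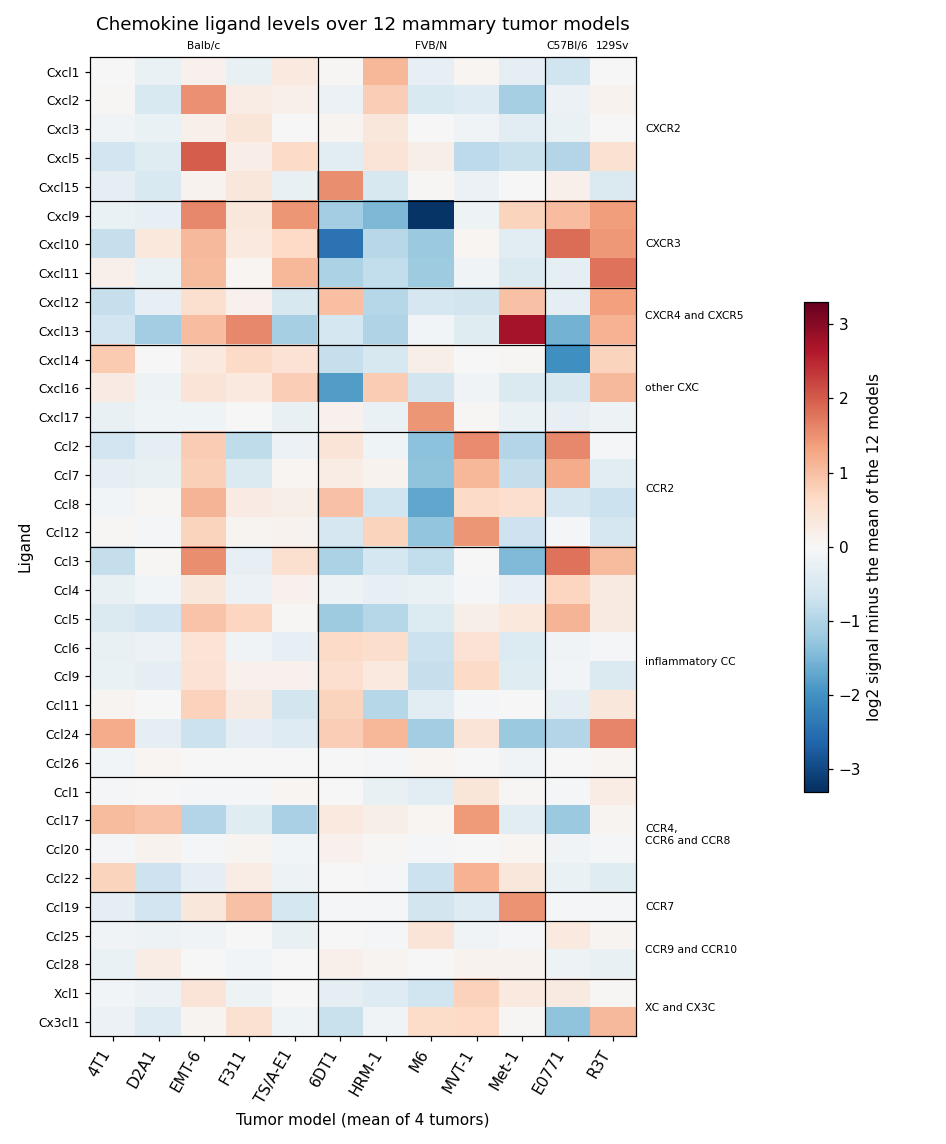
Mean log2 signal of each of 34 chemokine ligands in each of 12 tumor models (4 tumors each), minus that ligand's mean over the models; rows are grouped by receptor or role and columns by mouse strain. Red is above and blue below the mean: Cxcl9 in M6 is the deepest blue and Cxcl13 in Met-1 the deepest red, and the rows of Ccl20 and Ccl26 are nearly white.

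The ligands of CXCR3 had the largest F values. Cxcl9, Cxcl10 and Cxcl11 are induced by interferons and attract activated T cells and NK cells, and all 3 passed over the 12 models, within Balb/c and within FVB/N. Cxcl9 was 7.03, 7.48, 7.52 and 7.69 in the M6 tumors, and 12.45, 12.24, 12.33 and 11.97 in the EMT-6 tumors. No other tumor was as low as any of M6, the next being 4T1 replicate 2 at 8.89. The model means spanned 4.82 log2 units, a 28.3-fold range (F = 24.6, adjusted p = 1.03e-12 by limma). EMT-6 (12.25 ± 0.21, SD, n = 4), TS/A-E1 (12.14 ± 0.39), R3T (12.05 ± 0.16), E0771 (11.68 ± 0.18) and Met-1 (11.40 ± 0.37) headed the order, and neighbours in it overlapped except R3T and E0771. HRM-1 came next above M6, with 4 tumors between 9.10 and 9.26.

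Cxcl10 had another order. Its signal was 12.05, 11.99, 12.20 and 12.16 in E0771 and 8.43, 7.49, 7.0 and 8.31 in 6DT1. All 4 tumors of 6DT1 lay below every other tumor, of which the lowest, in M6, was at 8.94. The range was 4.29 log2 units or 19.6-fold (F = 27.1, adjusted p = 2.72e-13 by limma), and R3T, at 11.67 ± 0.30 (SD, n = 4), overlapped E0771 at the top. Cxcl11 was highest in R3T, at 10.84, 10.38, 10.24 and 10.42, with TS/A-E1 replicate 3 (10.45) among these values. It was lowest in M6 (7.52 ± 0.12), 6DT1 (7.63 ± 0.20) and HRM-1 (7.85 ± 0.12), over a range of 2.95 (adjusted p = 1.64e-11). E0771 thus held the highest mean of Cxcl10 but not of its relatives: against the mean of the other models Cxcl10 was higher by 2.02 ± 0.24 (SE, adjusted p = 1.12e-08 by limma) and Cxcl9 by 1.10 ± 0.30 (adjusted p = 0.0032), while the difference of Cxcl11 was -0.35 ± 0.21 (adjusted p = 0.205). The difference between these ligands was not tested. In 6DT1, M6 and HRM-1 all 3 ligands were lower than in the other models, with adjusted p-values under 0.05 by limma.

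**Figure D2:**
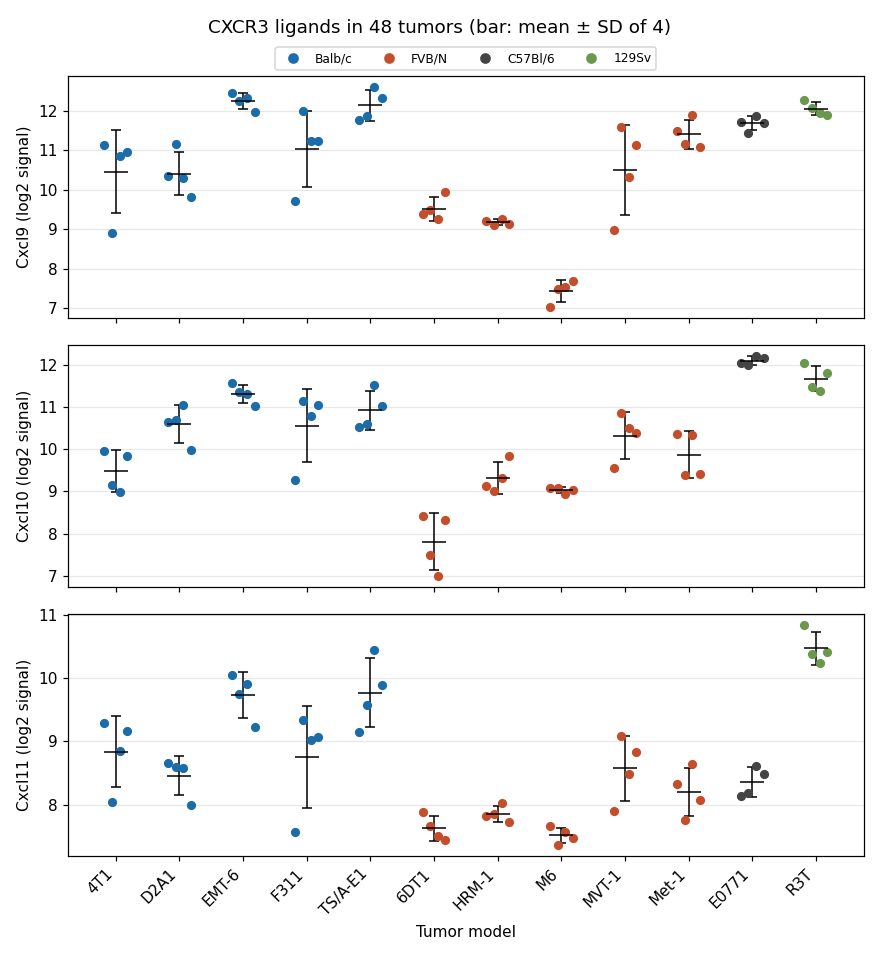
Log2 signal of Cxcl9, Cxcl10 and Cxcl11 in each of 48 tumors by model; points are tumors colored by strain, bars the mean and SD of 4. The M6 tumors are at the bottom for Cxcl9 (7.03 to 7.69), the 6DT1 tumors for Cxcl10 (7.0 to 8.43), and R3T heads Cxcl11 (10.24 to 10.84).

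The 250 bases before the start of Cxcl10 are shown because the ligand had the largest F value and belongs to the interferon-induced genes. They lie on the minus strand of GRCm38.p6 at chr5:92348890-92349139 (RefSeq). Capitals mark an interferon response element, searched as GAAANNGAA on both strands, and a kB motif, searched as GGGANNTTC on both strands, which begin 213 and 159 bases before the start.
Cxcl10: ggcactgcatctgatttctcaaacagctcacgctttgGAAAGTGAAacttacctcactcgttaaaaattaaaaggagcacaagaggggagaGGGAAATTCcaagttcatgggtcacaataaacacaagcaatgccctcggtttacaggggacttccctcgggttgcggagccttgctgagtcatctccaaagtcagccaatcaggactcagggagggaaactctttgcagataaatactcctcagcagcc
Of 32851 promoters 7.13% held GAAANNGAA in the same window. Among 23 ligands with a promoter in that table these were Ccl1, Ccl3, Ccl19, Cxcl9, Cxcl10 and Cxcl14. A match describes the letters and shows no binding.

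The genes of the interferon response measured beside these ligands numbered 7 (Ifit1, Ifit2, Ifit3, Irf1, Irf7, Oasl2 and Rsad2). Their score was highest in E0771 (mean 1.23, tumors 1.18 to 1.26) and lowest in 6DT1 (mean -1.39, tumors -1.69 to -1.16), the same models that held the highest and the lowest Cxcl10. The part of these genes in the level of Cxcl10 was not tested.

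Cxcl1, Cxcl2, Cxcl3, Cxcl5 and Cxcl15 bind CXCR2 and attract neutrophils, and 4 of the 5 passed over the 12 models. Cxcl1 was 9.53, 9.20, 9.49 and 9.60 in HRM-1 and 7.65, 7.87, 7.53 and 7.75 in E0771. Among all other tumors 6DT1 replicate 1 (9.37) alone reached the values of HRM-1. The range was 1.76 log2 units (3.38-fold, adjusted p = 3.86e-06 by limma), and HRM-1 was 1.21 ± 0.17 (SE) above the mean of the other models (adjusted p = 5.8e-07). From TS/A-E1 (8.67 ± 0.20) down to Met-1 (8.03 ± 0.19) each of the models in between overlapped the next. In 6DT1 the signal differed between tumors, at 9.37, 8.07, 7.44 and 8.70.

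EMT-6 was the model of Cxcl5, an epithelial neutrophil attractant. Its 4 tumors read 8.73, 8.74, 7.95 and 9.16, and no tumor of another model was as high, with the next model at 7.27 ± 0.29 (TS/A-E1). The mean of EMT-6 was 2.18 ± 0.23 (SE) above that of the other models (adjusted p = 2.39e-09 by limma). E0771 (5.68 ± 0.17) and MVT-1 (5.78 ± 0.07) were lowest. Cxcl2 was also highest in EMT-6 (8.49 ± 0.91) and lowest in Met-1 (5.88 ± 0.34), with a wider spread between tumors (adjusted p = 0.0361 over the 12 models). For Cxcl3 the range was 0.75 (adjusted p = 0.00385), from F311 to Met-1, and 1.14 (1.54e-05) between the same models without the 9 tumors of high scores.

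Cxcl15, known from lung epithelium, lay near the lower end of the array's range in most tumors, with a median of 4.73 in the 43 tumors without a high B cell score. It reached 9.65 and 7.92 in 6DT1 replicates 2 and 3, against 4.76 and 4.54 in replicates 1 and 4. Other high tumors were E0771 replicate 1 (7.62), F311 replicate 1 (7.40) and M6 replicate 2 (6.86). In the 7 tumors with a high adipocyte score Cxcl15 ran from 5.03 to 9.65 (median 7.40) and in the other 41 from 4.48 to 6.86 (median 4.72). Both high tumors of 6DT1 also had the highest scores of 7 basal and myoepithelial genes, 1.96 and 2.84, in that model, against -0.81 and -0.78. Their luminal (0.60 and 0.35), endothelial (1.40 and 1.40) and fibroblast (0.92 and 1.12) scores were the highest in that model too. In M6 the basal scores were 1.59, 1.72, 1.03 and 1.29, and Cxcl15 was 4.78, 6.86, 4.56 and 4.68. The part of any cell type in Cxcl15 was not tested. Cxcl15 was 1.67 ± 0.53 (SE) higher in 6DT1 than in the other models (adjusted p = 0.0124 by limma). Without the tumors of high scores that difference was -0.25 (adjusted p = 0.635).

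Promoters of Cxcl1, Cxcl2 and Cxcl3, which are neighbours on chromosome 5, are shown because all 3 carry the same 11-letter kB motif, in capitals, which holds GGGANNTTC on both strands in overlap. The windows are the 250 bases before the start on the plus strand of GRCm38.p6 (RefSeq), at chr5:90890995-90891244, chr5:90903649-90903898 and chr5:90785851-90786100.
Cxcl1: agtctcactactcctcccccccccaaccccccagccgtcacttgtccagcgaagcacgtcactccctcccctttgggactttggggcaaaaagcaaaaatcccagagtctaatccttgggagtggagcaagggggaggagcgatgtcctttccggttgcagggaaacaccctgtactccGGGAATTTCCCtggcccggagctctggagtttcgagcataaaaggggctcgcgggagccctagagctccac
Cxcl2: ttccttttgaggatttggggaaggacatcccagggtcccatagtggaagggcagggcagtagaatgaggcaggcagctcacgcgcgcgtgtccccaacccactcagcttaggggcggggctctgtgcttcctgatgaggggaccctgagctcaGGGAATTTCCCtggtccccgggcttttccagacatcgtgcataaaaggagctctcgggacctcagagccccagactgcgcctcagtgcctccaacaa
Cxcl3: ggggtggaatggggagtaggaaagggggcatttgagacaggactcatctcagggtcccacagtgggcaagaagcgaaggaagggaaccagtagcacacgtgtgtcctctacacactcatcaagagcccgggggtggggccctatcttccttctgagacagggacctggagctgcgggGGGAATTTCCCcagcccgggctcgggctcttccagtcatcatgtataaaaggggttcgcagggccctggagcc
The motif begins 71, 97 and 73 bases before the start. Of the 32851 promoters searched 3.23% held GGGANNTTC in this window, and of 23 ligands Ccl1, Cxcl1, Cxcl2, Cxcl3, Cxcl9 and Cxcl10. The highest model was HRM-1 for Cxcl1, EMT-6 for Cxcl2 and F311 for Cxcl3.

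All 4 ligands grouped here under CCR2, the receptor of inflammatory monocytes, passed over the 12 models. Ccl2 was 11.35, 11.88, 11.63 and 11.98 in E0771 and 11.76, 11.48, 11.43 and 12.11 in MVT-1. Tumors of M6 read 8.15, 8.83, 9.48 and 8.59. Of the remaining tumors only 6DT1 replicates 1 (11.77) and 4 (11.52) reached the values of E0771 and MVT-1, and 6DT1 spread most, down to 8.27 in replicate 3. The range was 2.94 log2 units or 7.69-fold (adjusted p = 1.06e-08 by limma). Against the other models Ccl2 was higher by 1.73 ± 0.28 (SE) in E0771 (adjusted p = 4.17e-06) and by 1.72 ± 0.28 in MVT-1 (1.93e-05), and the difference of M6 was -1.48 ± 0.28 (4.46e-05).

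Ccl7, another monocyte ligand, followed Ccl2 over the models, with Pearson's r = 0.97 over 12 model means, given as a description. It was 11.32 ± 0.19 (SD, n = 4) in E0771, 11.17 ± 0.24 in MVT-1 and 8.76 ± 0.78 in M6. Ccl12, a close relative of Ccl2, was highest in MVT-1, at 8.55, 9.39, 9.11 and 9.03. In E0771 its difference from the other models was -0.03 ± 0.22 (adjusted p = 0.927 by limma), so the 2 models with the highest Ccl2 differed in Ccl12 by their means of 7.54 and 9.02. Ccl8 was highest in EMT-6 (11.43 ± 0.38) and lowest in M6 (8.58 ± 0.94). M6 had the lowest mean of all 4 ligands. The score of 12 macrophage genes was also lowest in M6, with a mean of -1.03, and its part in these levels was not tested.

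**Figure D3:**
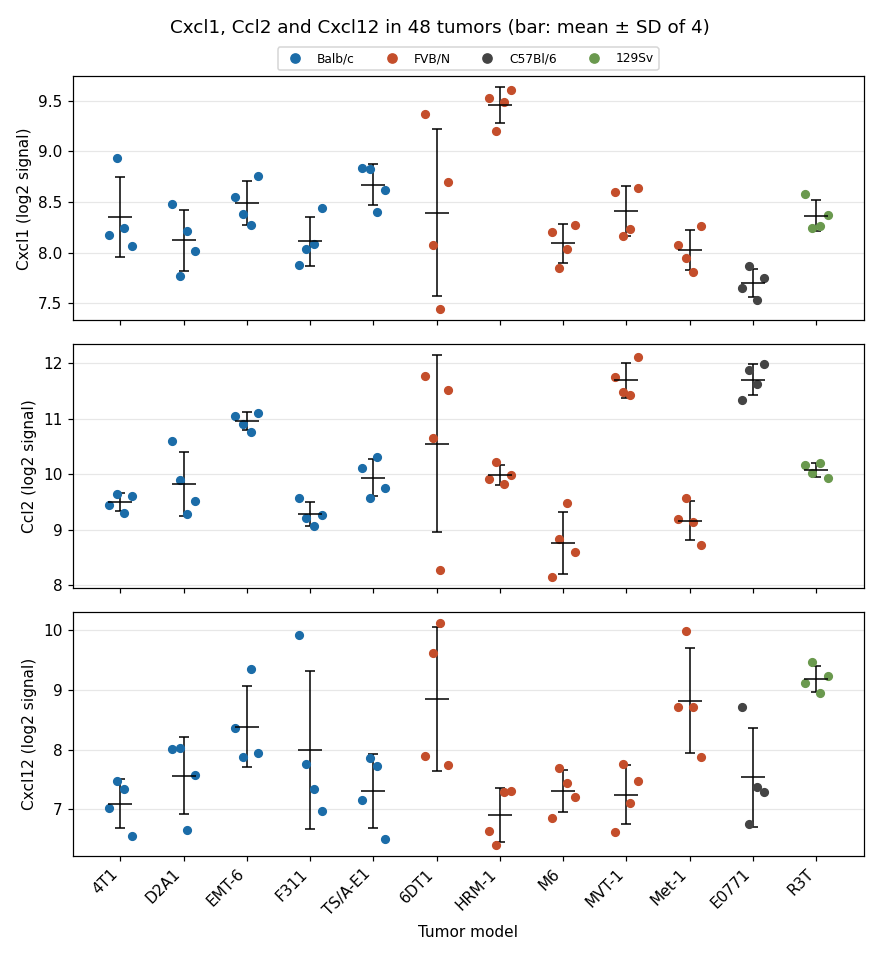
Log2 signal of Cxcl1, Ccl2 and Cxcl12 in each of 48 tumors by model; points are tumors colored by strain, bars the mean and SD of 4. HRM-1 heads Cxcl1 (9.20 to 9.60), E0771 and MVT-1 head Ccl2 (11.35 to 12.11), and for Cxcl12 the tumors of F311 and of 6DT1 spread over more than 2 log2 units.

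The other inflammatory CC ligands, which act on monocytes, eosinophils and T cells, numbered 8, and 6 passed. Ccl3 was 11.77, 10.89, 11.82 and 11.55 in E0771 and 8.32, 7.86, 8.53 and 8.37 in Met-1, the highest and the lowest model. The 2 models did not overlap. In E0771 it was 1.95 ± 0.42 (SE) above the other models (adjusted p = 0.000214 by limma), and in Met-1 its difference was -1.58 ± 0.42 (0.00275). Ccl4, its partner among inflammatory macrophage products, was highest in E0771 too (7.01 ± 0.22, SD, n = 4) over a range of 0.98 (adjusted p = 1.78e-11), and followed Ccl3 over the model means (r = 0.94, n = 12). Tumors of 6DT1 and F311 were far apart in Ccl3, from 6.36 to 10.76 and from 7.46 to 10.97.

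Ccl5, made by activated T and NK cells, was highest in E0771 (11.49 ± 0.07) and lowest in 6DT1 (9.19 ± 0.48), over a range of 2.30 (adjusted p = 2.28e-05 by limma). The eotaxin Ccl24 was highest in R3T, where the tumors read 8.41, 9.15, 10.29 and 6.38 and so spanned most of its range. It was lowest in Met-1, with values from 5.61 to 5.79. Ccl6 and Ccl9, made by myeloid cells, had their lowest means in M6 (10.09 and 9.27) and moved together over the models (r = 0.87, n = 12). Ccl11 ran from 8.14 to 11.05 and Ccl26 from 5.04 to 5.47 over the 48 tumors.

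Of the 4 ligands grouped here under CCR4, CCR6 and CCR8, 3 passed. Ccl17 and Ccl22, which dendritic cells and macrophages use to attract regulatory and type 2 helper T cells, were both highest in MVT-1. The MVT-1 tumors read 8.14, 10.62, 8.59 and 11.35 for Ccl17, while those of E0771, the lowest model, read 7.34, 6.98, 7.09 and 6.83. Ccl17 was 1.52 ± 0.36 (SE, adjusted p = 0.00155 by limma) and Ccl22 1.26 ± 0.36 (0.00962) higher in MVT-1 than in the other models. Ccl17 was also higher in 4T1 (9.33 ± 0.54, SD, n = 4). The range of Ccl1, a ligand of CCR8, was 0.75 (adjusted p = 0.0024), with MVT-1 highest. Ccl20 lay between 5.77 and 6.51 in every tumor.

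Cxcl12 is a stromal ligand of CXCR4, a receptor that retains leukocytes and carcinoma cells in tissue. It was 9.11, 9.47, 8.95 and 9.24 in R3T and 6.64, 6.41, 7.29 and 7.30 in HRM-1. These 2 models did not overlap, but tumors of 4 others (EMT-6, F311, 6DT1 and Met-1) reached the values of R3T. The range was 2.28 (4.87-fold, adjusted p = 0.000403 by limma). Its pooled SD of 0.75 was above that of Cxcl1 (0.33) and Ccl2 (0.56). In the 7 tumors with a high adipocyte score Cxcl12 ran from 8.71 to 10.13 (median 9.62), and in the other 41 from 6.41 to 9.24 (median 7.47). The part of fat tissue in it was not tested. Without the 9 tumors its range was 2.19 (adjusted p = 1.81e-05), R3T stayed highest and HRM-1 lowest. The difference of 6DT1 from the other models was 1.09 ± 0.38 (adjusted p = 0.0239) with all tumors and 0.25 (0.592) without them.

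Cxcl13, the ligand of CXCR5 that gathers B cells into follicles, and Ccl19, the ligand of CCR7 that guides lymphocytes and dendritic cells into lymph nodes, differed more between tumors of 1 model than any other ligand, with pooled SDs of 1.53 and 1.05. Cxcl13 was 11.01, 12.57, 11.33 and 10.86 in Met-1 and 7.32, 6.41, 7.17 and 7.66 in E0771. The range of 4.30 log2 units (19.7-fold) had an adjusted p of 0.00627 by limma. Met-1 was 2.99 ± 0.78 (SE) above the other models (adjusted p = 0.0024), and all 4 of its tumors were at or above 10.86. In F311 the tumors read 12.39, 11.53, 9.52 and 7.71.

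In the 5 tumors with a high B cell score Cxcl13 ran from 11.28 to 12.57 and Ccl19 from 8.28 to 12.07. Over the other 43 tumors Cxcl13 ran from 6.26 to 11.33 (median 7.95) and Ccl19 from 6.62 to 9.58 (median 6.99). All 7 B cell genes measured, among them the defining markers Ms4a1, Cd79a and Pax5, were above their medians in each of the 5. The score that picked these 5 tumors is made of the same 7 genes, so this is no separate evidence. High Cxcl13 was also measured where the B cell score was low, at 11.03 in 6DT1 replicate 3 (score 0.07), 11.01 in Met-1 replicate 1 (0.05) and 10.97 in MVT-1 replicate 2 (0.31). Without the 9 tumors Cxcl13 kept its adjusted p under 0.05 (0.00235), with a range of 4.64 from Met-1 to 6DT1. Ccl19 did not pass with (0.162) or without (0.322) them, and its range fell from 2.11 to 1.17. The difference of Ccl19 in Met-1 was 1.63 ± 0.53 (SE, adjusted p = 0.0166 by limma) with all tumors and 0.90 (0.0285) without them.

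**Figure D4:**
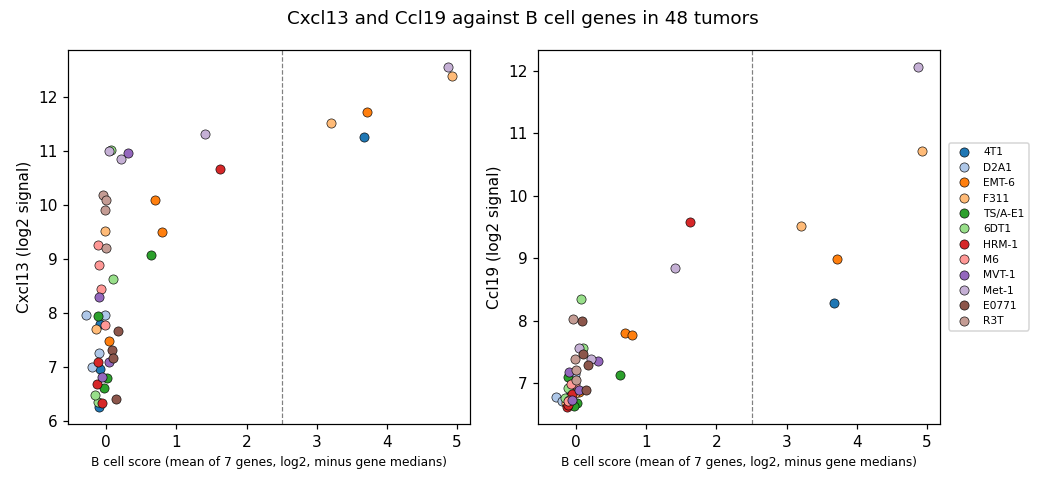
Log2 signal of Cxcl13 and Ccl19 against the B cell score (mean of 7 B cell genes relative to their medians, log2) in 48 tumors colored by model; the dashed line is a score of 2.5. The 5 tumors to its right lie at 11.28 to 12.57 for Cxcl13 and 8.28 to 12.07 for Ccl19, while tumors with a score near 0 span 6.26 to 11.03 for Cxcl13.

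The CXC ligands outside these receptor groups all passed. Cxcl14, an epithelial ligand of uncertain receptor, was lowest in E0771, at 9.53, 7.19, 8.33 and 8.39, and the difference from the other models was -2.20 ± 0.31 (SE, adjusted p = 2.09e-07 by limma). The highest mean was that of 4T1 (11.23 ± 0.20, SD, n = 4) with all tumors and that of F311, then 2 tumors, without the 9 of high scores. Cxcl16, a membrane-bound ligand of CXCR6, was 8.0, 8.63, 8.62 and 9.31 in 6DT1, below every other tumor, and highest in R3T (11.56 ± 0.21). In 6DT1 the difference was -2.02 ± 0.19 (adjusted p = 6.52e-10). Cxcl17, a mucosal ligand, was 8.62, 8.91, 7.28 and 8.30 in M6, which was 1.59 ± 0.15 above the others (adjusted p = 2.24e-11). The next model was 6DT1, at 6.97 ± 0.46 (SD).

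Xcl1, a product of T and NK cells that attracts cross-presenting dendritic cells, was highest in MVT-1, at 7.77, 8.66, 7.90 and 8.08. It was lowest in M6, at 6.75, 6.59, 6.58 and 6.81, and these 4 values lay below all others. The difference of M6 was -0.71 ± 0.12 (SE, adjusted p = 4.02e-06 by limma). Cx3cl1, a membrane-bound ligand for monocytes and NK cells, was 8.65, 8.56, 8.73 and 8.81 in E0771, below every other tumor. There the difference was -1.44 ± 0.20 (adjusted p = 1.52e-07), and R3T was highest at 11.08 ± 0.41 (SD, n = 4). Ccl28 and Ccl25, which guide lymphocytes to mucosa and gut, passed with ranges of 0.49 (adjusted p = 2.71e-09) and 0.66 (1.49e-05). Ccl28 was dim, with a mean of 5.77 over all tumors.

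Read by model, the ligands took different parts of the family. Each model was compared with the mean of the other 11, so that these 12 comparisons share tumors. EMT-6 had 13 ligands higher and 1 lower (11.3% and 12.6% of all genes). The 13 included Cxcl5 (2.18), Cxcl9 (1.72), Ccl3 (1.67) and Cxcl2 (1.66), and the lower one was Ccl17 (-1.07). MVT-1 had 10 higher and 1 lower (11.6% and 8.97% of all genes), led by Ccl2 (1.72), Ccl12 (1.58) and Ccl17 (1.52), with Cxcl5 lower (-0.95 ± 0.23, SE, adjusted p = 0.00224 by limma). R3T had 9 higher and 2 lower (13.2% and 10%), led by Cxcl11 (1.95 ± 0.21, adjusted p = 3.18e-09). E0771 had 9 higher and 8 lower (19.8% and 17.8%), with Cxcl10 and Ccl3 at one end and Cxcl14 and Cx3cl1 at the other.

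M6 had 3 ligands higher and 14 lower (18.9% and 17.7% of all genes). Its largest difference was that of Cxcl9, -3.54 ± 0.30 (SE, adjusted p = 2.95e-12 by limma), and the 3 higher were Cxcl17, Cx3cl1 and Ccl25. The score of 11 T and NK cell genes was lowest in M6 too, with a mean of -1.36. 6DT1 had 5 higher and 11 lower (15.6% and 19.9%), led by Cxcl10 (-2.66 ± 0.24, adjusted p = 3.18e-10). Without its replicates 2 and 3 and the other tumors of high scores, 6 were higher and 7 lower in 6DT1 (shares of all genes not computed). None (0) of the 5 higher calls was among those 6, while all 7 lower calls were among the 11. The 5 lost were Ccl8 (0.82, adjusted p = 0.162), Ccl9 (0.55, 0.219), Ccl28 (0.09, 0.181), Cxcl12 and Cxcl15, and Ccl2 was among those gained (from 0.47, adjusted p = 0.201, to 1.56, 4.21e-06). Ccl3, lower with all tumors (-1.14, adjusted p = 0.0301), was at 0.43 (0.298) without them. HRM-1 had 5 higher and 8 lower (14.8% and 10.1%), among them Cxcl1 above and Cxcl9 below (-1.63 ± 0.30, adjusted p = 6.33e-05). Met-1 had 6 higher and 11 lower (14.6% and 17.2%), with Cxcl13 and Ccl19 above and Ccl3 and Ccl24 below. Against FVB/N models alone, Cxcl9 in HRM-1 (-0.54, adjusted p = 0.227) and Ccl3 in Met-1 (-0.84, adjusted p = 0.157) no longer passed.

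The remaining Balb/c models had few. TS/A-E1 had 5 higher and 2 lower (9.62% and 6.57% of all genes), with Cxcl9 leading (1.60 ± 0.30, SE, adjusted p = 0.000148 by limma). 4T1 had 3 higher and 4 lower (11.8% and 12.8%), F311 2 higher and 2 lower (7.79% and 9.76%), and D2A1 2 higher and none lower (13.4% and 14.1%). Several of these calls did not pass once 1 tumor of the model was left out, which also leaves fewer tumors to test. In 4T1, Ccl24 (1.35, adjusted p = 0.0142) had an adjusted p of 0.0593 without replicate 2 and 0.076 without replicate 4, and Cxcl10 (-0.84, 0.00942) of 0.0682 without replicate 2 and 0.0907 without replicate 3. In D2A1, Ccl17 (1.02, 0.0277) was at 0.0583, 0.169 and 0.0502 without replicates 1, 3 and 4. For F311, neither Cx3cl1 (0.55, 0.0463) nor Ccl2 (-0.91, 0.0201) passed without replicate 2 (0.272 and 0.0737), 3 (0.217 and 0.084) or 4 (0.362 and 0.0619). Without the 9 tumors of high scores, which left 2 of F311, both passed, Cx3cl1 at 0.97 (adjusted p = 1.05e-05) and Ccl2 at -1.13 (0.000352). Ccl17 in TS/A-E1 (-1.16, 0.0186) failed without each of its replicates in turn (0.0516 to 0.071), though its difference stayed between -1.13 and -1.18.

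Elsewhere 3 of the calls named by rule did not pass once 1 tumor of the model was left out. Other calls given here were not examined singly in this way. Ccl17 in EMT-6 (adjusted p = 0.0235 by limma) was at 0.0664 without replicate 2 and 0.127 without replicate 4. Cxcl15 in 6DT1 was at 0.353 without replicate 2 and 0.106 without replicate 3, with differences of 0.69 and 1.27. Ccl12 in R3T (-0.60 ± 0.22, SE, adjusted p = 0.042) was at 0.176, 0.112 and 0.108 without replicates 1, 2 and 3. Its differences were then -0.51, -0.57 and -0.59. Counts moved by over 1.5 times too. Of 7 ligands called in 4T1, 3 were called without replicate 2 and 4 without replicate 3. Of 4 in F311, 7 were called without replicate 1, 1 without replicate 2, none (0) without replicate 3 and 2 without replicate 4. D2A1 went from 2 to 1 without replicate 3, and TS/A-E1 from 7 to 4, 4, 3 and 3 without replicates 1 to 4. 6DT1 went from 16 to 9 without replicate 2, HRM-1 from 13 to 8 without replicate 1 or 2, MVT-1 from 11 to 7 without replicate 4, and Met-1 from 17 to 9, 10 and 11 without replicates 1, 2 and 3. M6, E0771, R3T and EMT-6 stayed within 1.5 times. Without the 9 tumors of high scores 12 ligands were called in 4T1 (4 higher, 8 lower), 10 in D2A1 (3 higher, 7 lower) and 7 in F311 (4 higher, 3 lower). The ligands lower in R3T then numbered 4 (from 2), those in EMT-6 2 (from 1) and those in MVT-1 2 (from 1). D2A1 kept all 4 of its tumors in this. The share of all genes called was not computed with tumors left out, so these counts cannot be set against it.

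**Figure D5:**
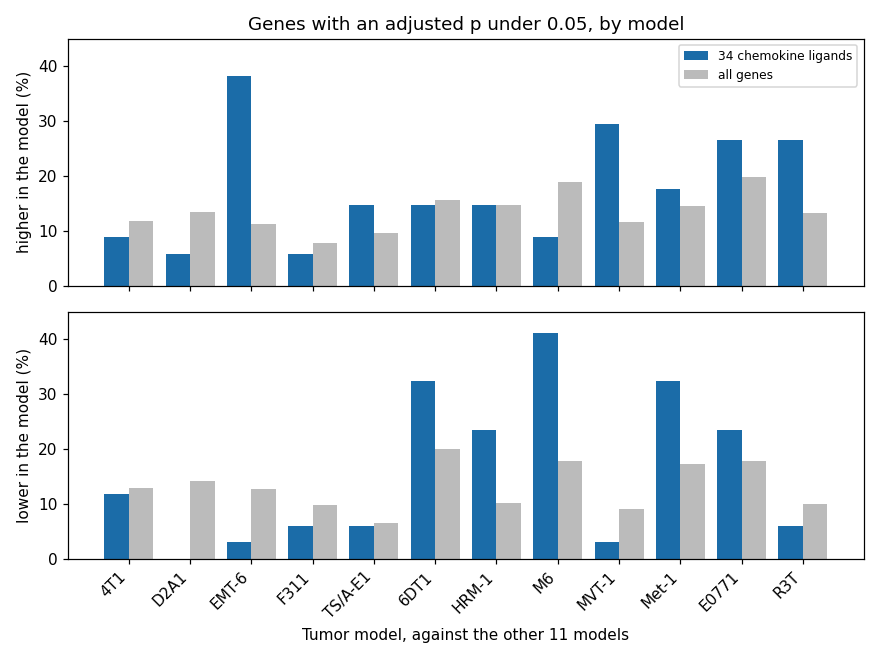
Percent of 34 chemokine ligands (blue) and of all 19938 genes (gray) with an adjusted p under 0.05 in each model against the other 11, with genes higher in the model above and lower below. The blue bars stand tallest for EMT-6 above (13 ligands) and for M6 below (14 ligands), and D2A1 has no bar below.

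Between strains no ligand passed. The 5 Balb/c models were compared with the 5 FVB/N models on their model means, and 0 of 34 ligands had an adjusted p under 0.05 by limma, where 0.191% of all genes did (0.0953% higher and 0.0953% lower in Balb/c). At an unadjusted p under 0.05 there were 5 ligands (8.01% of all genes). These were Cxcl11, with means of 9.11 and 7.95 (difference 1.15 ± 0.31, SE, adjusted p = 0.299), Cxcl14 (10.84 and 10.16, adjusted p = 0.441), Cxcl10 (10.57 and 9.27, adjusted p = 0.534), Ccl3 (9.93 and 8.94, adjusted p = 0.621) and Cxcl9 (11.26 and 9.60, adjusted p = 0.621). All 5 had the higher mean in Balb/c. The model means of Cxcl11 ran from 8.46 to 9.77 in Balb/c and from 7.52 to 8.57 in FVB/N, overlapping only between D2A1 and MVT-1.

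The receptors were measured on the same arrays. Of 22 receptor genes tested 13 passed over the 12 models (70.4% of all genes). Cxcr3, the receptor of Cxcl9, Cxcl10 and Cxcl11, had the largest F (22.4, adjusted p = 3.75e-12 by limma). It was 9.91, 9.94, 9.41 and 9.36 in R3T, the model with the highest Cxcl11, and 6.84, 6.50, 7.0 and 6.89 in M6, the model with the lowest Cxcl9. Cxcr2, the receptor of Cxcl1 and Cxcl5, was 8.81, 8.05, 8.48 and 8.68 in HRM-1 and 5.50, 5.41, 5.57 and 5.97 in E0771 (adjusted p = 7.6e-09), which were also the highest and lowest models of Cxcl1. Ccr2, on inflammatory monocytes, was highest in TS/A-E1 (median log2 signal 10.12, n = 4) and lowest in M6 (7.26, adjusted p = 9.54e-09), whereas its ligand Ccl2 was highest in E0771. The atypical receptor Ccrl2 (adjusted p = 9.58e-09), Ccr1 (2.71e-08) and the Cxcl16 receptor Cxcr6 (6.97e-08) had the next largest F values, and their lowest model was M6 as well.

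Relations of a ligand to the genes of a cell type were computed for 6 pairs over the 12 model means, with p-values from permutation tests (100000 resamples, two-sided) adjusted over the 6. Cxcl9 rose with 11 genes of T and NK cells (r = 0.85, permutation p = 0.00048, adjusted p = 0.00144, rho = 0.80, permutation p = 0.00293, adjusted p = 0.00879), and r was 0.80 without M6 and D2A1, the 2 models farthest from the median of the score. Ccl5 rose with the same genes (r = 0.87, permutation p = 0.00038, adjusted p = 0.00144, rho = 0.87, permutation p = 0.00046, adjusted p = 0.00276, r = 0.96 without M6 and D2A1). Within the 5 Balb/c and the 5 FVB/N models r was 0.70 and 0.93 for Cxcl9, and 0.96 and 0.72 for Ccl5. Cxcl13 gave r = 0.73 with 7 B cell genes (permutation p = 0.0083, adjusted p = 0.0166), but rho = 0.43 (permutation p = 0.163, adjusted p = 0.202). Without F311 and Met-1 r was 0.36, so that the relation over the 12 models rests on these. Within the 5 Balb/c models, which include F311, r was 0.95. Within the 5 FVB/N models, which include Met-1, it was 0.91.

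The other 3 relations did not pass. Cxcl1 gave r = -0.15 with 10 neutrophil genes (permutation p = 0.598, adjusted p = 0.598, rho = -0.05, permutation p = 0.885, adjusted p = 0.885, r = -0.05 without Met-1 and D2A1). Ccl2 gave r = 0.46 with 12 macrophage genes (permutation p = 0.131, adjusted p = 0.158, rho = 0.43, permutation p = 0.169, adjusted p = 0.202, r = 0.15 without M6 and D2A1). Cxcl12 gave r = 0.51 with 10 fibroblast genes (permutation p = 0.0899, adjusted p = 0.135, rho = 0.53, permutation p = 0.0803, adjusted p = 0.161, r = 0.40 without E0771 and HRM-1). Within the 5 Balb/c and the 5 FVB/N models r was 0.57 and -0.22 for Cxcl1, 0.57 and 0.81 for Ccl2, and 0.38 and 0.80 for Cxcl12.

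Across the models, ligands of 1 receptor group were on the whole only loosely alike. Over the 12 model means the median r was 0.23 for 59 pairs within a receptor group and 0.05 for 502 other pairs, a description in which all pairs share the same tumors. Highest were Ccl2 and Ccl7 (0.97), Ccl3 and Ccl4 (0.94), and Ccl6 and Ccl9 (0.87), each within a receptor group. Next came a pair of different receptors, Ccl3 and Cxcl10 (0.86), followed by Ccl19 and Cxcl13 (0.83). Cxcl2 and Cxcl5 gave 0.81. Cxcl15 and Cxcl16 (-0.78) and Cxcl9 and Cxcl17 (-0.77) ran most strongly opposite. Cxcl15 did not pass over the 12 models (adjusted p = 0.348 by limma). Its highest mean was in 6DT1, the lowest model of Cxcl16. There Cxcl15 was 9.65 and 7.92 in replicates 2 and 3, with high adipocyte scores, and 4.76 and 4.54 in replicates 1 and 4. The r of this pair was not computed without those tumors.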

How the data were processed

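RNA of 48 tumors, 4 of each of 12 models, was measured on Affymetrix Mouse Gene 1.0 ST arrays. The log2 signals were used as the authors deposited them (35556 clusters), while the software and the normalization behind them were not given in the sources used here. A single gene was named by 21789 clusters, several genes by 1621 and none by 12146. A gene was read from its cluster with the highest mean, which gave 19938 genes. Models were compared with limma 3.58.1 (R 4.3.3), with Benjamini-Hochberg adjustment over all genes and without a replicate term. F-tests covered all, Balb/c and FVB/N models, contrasts set each model against the mean of the other 11, and the strain test used model means (5 against 5). The fits were checked on simulated data. Arrays give no read depth, and the number of arrays limits the precision. Members and lists were chosen with earlier results of these data known.

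Values are given for Cxcl1, Ccl2 and Cxcl12, for the 12 members with the largest F, for those that did not pass, for the members with the largest change in each contrast (up to 2 each way where tumors overlap no other model), for the 4 with the smallest strain p, for 6 receptors and for Ccl19 and Cxcl13; others named were chosen after their values were seen. The 9 tumors with high adipocyte or B cell scores were set apart after the data were seen. Nothing says whether tumors of a model shared a mouse, so p-values measure the spread between these tumors. No arrays were duplicates (highest r = 0.9967). Cell scores in relations were centred on gene means, others on gene medians. Promoters were those of RefSeq on GRCm38.p6, with those of 1 chromosome left out. Shares count promoters, while ligands are counted as genes. The kB and interferon response motifs were searched without their last letter, which was dropped after matches to the longer forms had been seen. This raised the share of the promoters searched that match. Another motif, TTCNNNGAA (GAS), was also searched. It was in 7.02% of these promoters and in 2 of 23 ligands, Ccl17 and Cxcl14. Alternatives were quantile normalization, centred arrays, mean of clusters, leaving out the dimmest 30% of clusters, intensity trend, robust prior, an unmoderated one-way test, a replicate block, same-strain comparisons, model medians and leaving out tumors or models. Plots were made with matplotlib.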

Additional observations from a re-analysis of the deposited data

Results flagged for a closer look

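In 26 of 408 sets, each of 1 ligand in the 4 tumors of 1 model, a tumor stood apart from the nearest other by a gap above the 95% limit of Dixon's test. These cases fell in 17 of the 48 tumors; chance gives about 1 in 20 such sets. HRM-1 replicate 4 was high in 3 ligands that lymphocytes make or follow, at 10.65 for Ccl5 (nearest tumor 9.07), 9.58 for Ccl19 (6.82) and 8.22 for Ccl22 (6.88), and its B cell score was 1.63. F311 replicate 1, with high adipocyte and B cell scores, was high in Ccl11 (11.04, nearest 9.69) and Cxcl17 (7.28, nearest 6.69), and low in Cx3cl1 (9.13, nearest 10.84) and Cxcl16 (9.44, nearest 11.20). M6 replicate 1 was low in the myeloid ligands Ccl8 (7.17, nearest 8.99) and Ccl9 (8.22, nearest 9.53).

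Cxcl15 stood apart in 4 tumors, at 7.62 in E0771 replicate 1 (nearest 4.70), 6.86 in M6 replicate 2 (4.78), 5.97 in MVT-1 replicate 2 (4.72) and, for TS/A-E1, 5.60 in replicate 4 (4.74). Ccl19 was high in 4T1 replicate 3, at 8.28 (6.80), where the B cell score was 3.68, and in D2A1 replicate 1, at 7.15 (6.78). Among CXCR3 ligands, Cxcl9 was 8.89 in 4T1 replicate 2 (nearest 10.85) and Cxcl11 was 7.99 in D2A1 replicate 4 (8.58).

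Among neutrophil ligands, Cxcl5 was high in D2A1 replicate 1 (6.92, nearest 6.07), was high in replicate 3 of Met-1 (6.76, nearest 5.70) and was low in MVT-1 replicate 3 (5.66, nearest 5.80), and Cxcl3 was high in EMT-6 replicate 4 (6.72, nearest 6.23) as well as TS/A-E1 replicate 1 (6.61, nearest 6.04). The rest were Ccl8 in HRM-1 replicate 2 (9.13, nearest 9.78), Ccl28 in HRM-1 replicate 2 (5.97, nearest 5.83), Cx3cl1 in TS/A-E1 replicate 2 (9.44, nearest 9.98) and Cxcl14 in EMT-6 replicate 4 (10.23, nearest 10.81).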

How the results depend on the processing

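There were 832 alternative values for single ligands. They were F-tests of every ligand over the 12 models, and contrasts and strain differences of ligands named by rule. Of these values 780 kept their side of the threshold and, where they had one, their direction. Another 45 no longer passed, 6 came to pass and 1 reversed. That one was Cxcl15 in 6DT1, at -0.25 without the 9 tumors of high adipocyte or B cell scores, and among calls outside the rule Ccl3 in 6DT1 also turned, to 0.43. The counts of ligands called in F311 were 2 with arrays centred on their medians and 2 with a replicate block, against 4. With only models of the same strain as comparison, 7 were called in D2A1 (from 2), 3 in TS/A-E1 (from 7) and 10 in 6DT1 (from 16). Without the 9 tumors the counts were 12 in 4T1, 10 in D2A1 and 7 in F311. Leaving out each tumor in turn gave 3 to 5 calls in 4T1, 1 to 3 in D2A1, 11 to 12 in EMT-6, 0 to 7 in F311, 3 to 4 in TS/A-E1, 9 to 16 in 6DT1, 8 to 10 in HRM-1, 15 to 17 in M6, 7 to 10 in MVT-1, 9 to 13 in Met-1, 15 to 16 in E0771 and 8 to 11 in R3T. Leaving out each replicate number gave 25 to 28 ligands over the 12 models, 11 to 15 in Balb/c and 19 to 25 in FVB/N, and 11 to 15 receptors. Shares of all genes were not computed for these alternatives. The strain count was 0 under every alternative run, each model left out in turn included. The relation of Cxcl13 to B cells was r = 0.36 without the 2 farthest models and 0.57 without the 9 tumors. It passed in neither (permutation adjusted p = 0.456 and 0.110). Without each replicate number its r was 0.54 to 0.80. At 0.54, without replicate 2, it did not pass (permutation adjusted p = 0.122). The relation of Cxcl12 to fibroblasts was 0.37 to 0.64 without each replicate number, passing without replicate 1 (permutation adjusted p = 0.0342). The causes were not tested. Replicate numbers were treated as names of tumors. Deviations of same-numbered tumors of different models had a median r of 0.03 (264 pairs), against 0.00293 for other pairs (792). The share of pairs with r above 0.1 was 37.9% against 31.9%. Whether a batch went with the numbers could not be tested, as labels gave none. With the replicate block 28 ligands passed over the 12 models, against 29, and the call lost was Ccl6 (adjusted p = 0.0588 by limma). Signal near background limits Ccl26 and Cxcl15. The means of Ccl28 (5.77), Ccl20 (5.98), Cxcl3 (6.17), Ccl4 (6.30) and Cxcl5 (6.64) also lay below the lowest array median of 6.76.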

Other observations

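Ccl21, the second ligand of CCR7, was left out above because its 4 clusters each name several of the Ccl21 genes, and these clusters held the same values. They ran from 9.67 to 12.06 (median 10.83) in the 5 tumors with a high B cell score and from 5.94 to 10.78 (median 6.75) in the other 43. The clusters of the skin ligand Ccl27, which also name a second gene, went up to 11.11 and 11.24 among those 43 tumors, and to 8.25 and 8.95 in the 5.

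Pf4 and Ppbp are platelet chemokines whose symbols do not carry the family stem. Ppbp differed among the 12 models (adjusted p = 2.07e-05 by limma), from 8.50 ± 0.53 (SD, n = 4) in HRM-1 to 6.17 ± 0.50 in 4T1. HRM-1 was also the model with the highest Cxcl1 and Cxcr2. Pf4 did not pass (adjusted p = 0.0534), with its highest mean in MVT-1 (9.53 ± 0.13) and its lowest in M6 (8.02 ± 0.81).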
